A study of Mus musculus with 16 samples.

Results

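The comparison described here is Scml2 knockout against wild type in c-Kit+ spermatogonia, 4 of the 16 ATAC-seq libraries of a series on mouse spermatogenesis. Members were chosen by sample title: the 2 Scml2-KO and the 2 wild-type libraries of the c-Kit fraction. The cells came from testes of C57BL/6 mice at postnatal day 7, with about 500000 cells per reaction, and the labels give no allele beyond the knockout and do not say whether replicates came from separate mice. The remaining 12 libraries cover Thy1+ spermatogonia of the same age and, from later in spermatogenesis, the pachytene spermatocyte (PS) and the round spermatid (RS), in both genotypes. The question is where open chromatin differs when the differentiating spermatogonia lack Scml2.

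In ATAC-seq, a transposase loaded with adapters cuts accessible DNA, so that a peak marks an open promoter or regulatory element. c-Kit, the receptor of stem cell factor, is carried by differentiating spermatogonia, whereas Thy1 enriches for stem and progenitor cells. SCML2 is a germline protein of the X chromosome that is related to Polycomb repressors. It binds the Polycomb complex PRC1 and is known for a part in silencing somatic genes in the male germline and in setting chromatin on the autosomes and the sex chromosomes. In a population of cells, a smaller share of cells with an open site and a less open site in each cell cannot be told apart.

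The length of the peak lists differed more between replicates than between genotypes. On the autosomes the Scml2-KO lists held 89362 and 17410 peaks in replicates 1 and 2, and the wild-type lists held 81517 and 31617. Peaks covered 36.3 and 6.56 Mb in Scml2-KO and 26.6 and 11.2 Mb in wild type. Fold enrichment, the authors' ratio of the pileup at the summit to the background, began at 3.196 and 3.67 in the Scml2-KO lists and at 3.56 and 3.599 in the wild-type lists. The Scml2-KO replicate 2 list thus stands apart as the shortest, and 94.4% of its peaks overlapped a peak of Scml2-KO replicate 1, while 93.7% overlapped a peak of wild-type replicate 1. The overlap of 2 lists was taken as the Jaccard index, the regions with a peak in both over those with a peak in either. It was 0.165 between the 2 Scml2-KO libraries and 0.343 between the 2 wild-type libraries, against 0.569 between the 2 replicate 1 libraries and 0.449 between the 2 replicate 2 libraries. With the 17410 peaks of highest significance in each list, these values were 0.502, 0.595, 0.659 and 0.567. A missing peak says only that none passed the caller's threshold, and that threshold was reached by fewer sites in both replicate 2 libraries. How many reads lie behind each list is unknown.

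Scml2 itself lies on chromosome X, with its transcription start site (TSS) at 161162772. Its promoter peak had a fold enrichment of 6.93 in Scml2-KO replicate 1 and was missing in replicate 2, against 8.90 and 3.599 in wild type. An open promoter does not check a knockout whose deleted part the labels do not give.

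Most open regions were not split by genotype. Among 106241 merged autosomal regions, 13552 had a peak in all 4 libraries. These shared regions were long, with a median of 967 bp, and 69.0% of them lay within 1 kb of a TSS. The most frequent combinations followed the replicate numbers instead: 32285 regions had a peak in both replicate 1 libraries and in neither replicate 2 library, 27538 in Scml2-KO replicate 1 alone and 15862 in wild-type replicate 1 alone. A peak in both Scml2-KO and neither wild-type library was found in 132 regions, 0.124% of all, and the reverse in 509 regions, 0.479% of all. These genotype-split regions were short and weak, taking a region's value as the median over its libraries with a peak. Those open in Scml2-KO had a median length of 275 bp and a median fold enrichment of 4.495, with a highest value of 6.09. Those open in wild type had a median length of 222 bp and a median fold enrichment of 4.94, with a highest value of 8.60. The regions shared by all 4 libraries had a median of 11.3. With 2 against 2 libraries the smallest two-sided exact p is 0.333, so no test of presence can be passed, and these counts are a description. They rest on single libraries: leaving out Scml2-KO replicate 1 gave 829 regions towards Scml2-KO and 13132 towards wild type, and leaving out Scml2-KO replicate 2 gave 27670 and 555. Without wild-type replicate 1 there were 1084 and 1518, and without wild-type replicate 2 there were 190 and 16371.

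**Figure D1:**
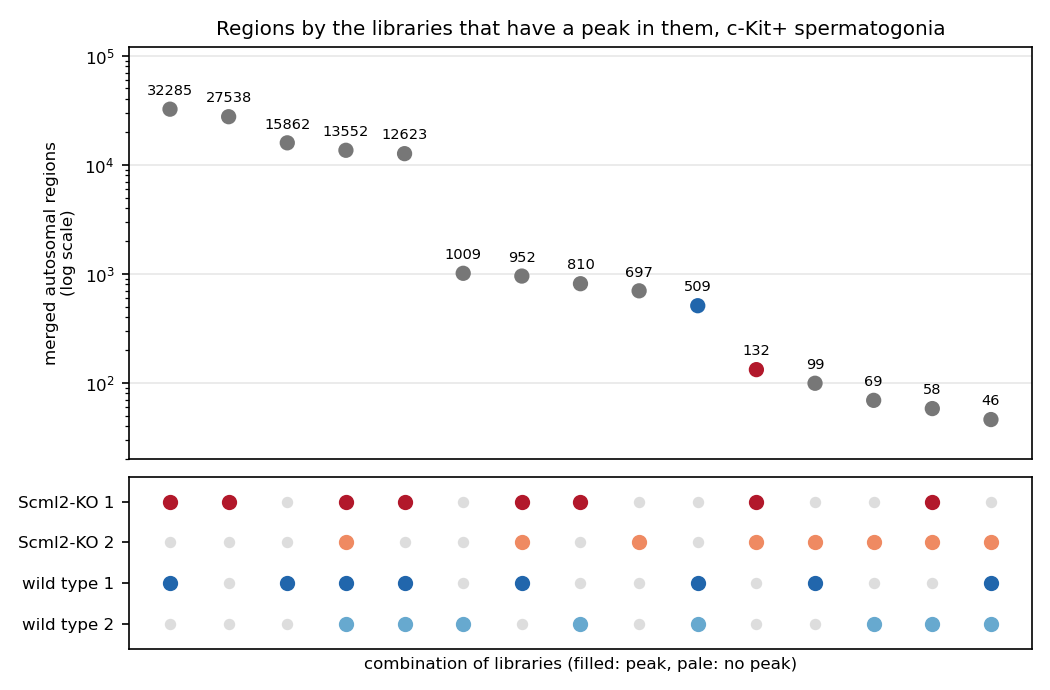
Number of merged autosomal regions (log scale) for each of the 15 combinations of the 4 c-Kit+ libraries, with a filled dot below for each library that has a peak. The 132 regions split towards Scml2-KO (red) and the 509 split towards wild type (blue) are far fewer than the 32285 regions found in both replicate 1 libraries alone.

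At promoters the split was about even in the lists as deposited. Of 20420 autosomal genes, 24 had a promoter peak in both Scml2-KO and neither wild-type library, 0.118% of all, and 26 the reverse, 0.127% of all. A promoter peak here is one that overlaps the 1 kb on either side of a TSS, and the strongest is given. By comparison, 10229 genes had a promoter peak in all 4 libraries and 5472 in none. Genes with a promoter peak numbered 14525 and 10508 in Scml2-KO and 14283 and 12270 in wild type. In 19 of the 24 genes and in 22 of the 26 genes, the peaks of the 2 libraries overlapped each other, and in the others they lay apart within the window. Without Scml2-KO replicate 1 the counts were 39 genes towards Scml2-KO and 1956 towards wild type, without Scml2-KO replicate 2 they were 570 and 31, without wild-type replicate 1 they were 239 and 54, and without wild-type replicate 2 they were 29 and 360.

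The bases before the RefSeq TSS are printed for 6 of these genes, to show what lies at promoters that carried a peak in only 1 genotype. Slc2a10, a facilitative glucose transporter, and Ttc9, a tetratricopeptide repeat protein, had overlapping peaks near the TSS in both Scml2-KO libraries. Chst13, a chondroitin sulfotransferase, and Timp2, an inhibitor of matrix metalloproteinases, had them in both wild-type libraries. Lin28a, an RNA-binding protein of undifferentiated spermatogonia that blocks let-7 maturation, and Pgk2, the testis form of phosphoglycerate kinase, are the 2 genes of the pathway lists below that showed either pattern. Each sequence has 250 bases, ends at the base before the TSS and comes from RefSeq on GRCm38.p6. It is written 5′ to 3′ along the gene's strand, with every CCAAT box and every GC box (GGGCGG), read on both strands, in capitals.
Slc2a10 (chr2:165503647-165503896, plus strand): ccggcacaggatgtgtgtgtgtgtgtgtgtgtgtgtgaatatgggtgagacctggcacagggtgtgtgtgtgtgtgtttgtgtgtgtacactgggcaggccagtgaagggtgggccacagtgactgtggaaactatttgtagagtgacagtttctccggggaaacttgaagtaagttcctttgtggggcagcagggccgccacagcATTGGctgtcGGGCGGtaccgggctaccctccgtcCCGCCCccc
Ttc9 (chr12:81630999-81631248, plus strand): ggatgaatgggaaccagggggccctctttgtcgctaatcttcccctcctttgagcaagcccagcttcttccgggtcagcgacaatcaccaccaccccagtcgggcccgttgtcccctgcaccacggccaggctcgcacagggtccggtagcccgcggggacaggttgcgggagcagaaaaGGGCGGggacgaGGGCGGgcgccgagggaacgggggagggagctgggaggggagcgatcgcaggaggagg
Lin28a (chr4:134018817-134019066, minus strand): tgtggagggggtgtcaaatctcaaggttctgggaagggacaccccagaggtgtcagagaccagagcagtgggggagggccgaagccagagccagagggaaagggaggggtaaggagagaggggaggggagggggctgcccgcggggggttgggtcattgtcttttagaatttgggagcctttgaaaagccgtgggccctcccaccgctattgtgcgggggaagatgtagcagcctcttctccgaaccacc
Chst13 (chr6:90325186-90325435, minus strand): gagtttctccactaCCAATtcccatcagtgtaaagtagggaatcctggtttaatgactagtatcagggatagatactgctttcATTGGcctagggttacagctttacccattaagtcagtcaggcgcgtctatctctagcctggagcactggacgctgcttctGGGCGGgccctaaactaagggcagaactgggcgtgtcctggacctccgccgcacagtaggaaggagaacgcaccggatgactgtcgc
Timp2 (chr11:118355412-118355661, minus strand): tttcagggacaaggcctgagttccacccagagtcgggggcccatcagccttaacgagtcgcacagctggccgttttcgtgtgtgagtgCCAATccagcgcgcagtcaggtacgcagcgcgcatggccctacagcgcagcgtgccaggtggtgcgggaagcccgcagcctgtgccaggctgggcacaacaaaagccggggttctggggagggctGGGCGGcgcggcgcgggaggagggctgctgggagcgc
Pgk2 (chr17:40208610-40208859, minus strand): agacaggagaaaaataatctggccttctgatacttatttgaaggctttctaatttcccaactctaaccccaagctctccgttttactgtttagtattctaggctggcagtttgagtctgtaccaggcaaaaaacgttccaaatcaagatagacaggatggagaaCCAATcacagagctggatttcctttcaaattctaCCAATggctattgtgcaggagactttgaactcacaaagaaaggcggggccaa
Slc2a10 has 1 CCAAT box and 2 GC boxes, Ttc9 has 0 and 2, Lin28a has 0 of either, Chst13 has 2 and 1, Timp2 has 1 and 1, and Pgk2 has 2 and 0. No box overlaps another. Of all 32851 RefSeq promoter windows of this length, 33.8% hold a CCAAT box and 32.7% a GC box on either strand. Only 11 of the 24 genes and 19 of the 26 genes matched a sequence, and a check of base content over these sets is void at such shares.

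The Scml2-KO promoter peaks were close to the lower limit of the lists. Slc2a10 had a fold enrichment of 5.86 in Scml2-KO replicate 1 (chr2:165503812-165504085) and 4.72 in replicate 2 (chr2:165503763-165503971), and no peak in either wild-type library. These 2 peaks contain 85 and 134 of the printed bases. Ttc9 had 4.26 (chr12:81631176-81631578) and 5.24 (chr12:81631206-81631383), with summits 34 and 64 bp before the TSS of the authors' annotation, at chr12:81631369. The printed bases of Ttc9 end at chr12:81631248, before both summits, and the 2 peaks contain 73 and 43 of these bases. Ctcfl, the testis paralog of the insulator protein CTCF, had 4.79 and 5.24, with peaks at chr2:173119164-173119781 and chr2:173119469-173119682 over its TSS. These values belong to both Scml2-KO libraries and have no counterpart in wild type. Lin28a had 3.73 in replicate 1, at chr4:134018652-134018823, and 4.20 in replicate 2, at chr4:134018385-134018557. The 2 Lin28a peaks do not overlap, with summits 98 and 362 bp downstream of the TSS.

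The other genes of highest median fold enrichment with this pattern were AU015791 (5.86 and 4.72), Prss8, the serine protease prostasin (5.86 and 4.20), Oxct2b, a testis enzyme of ketone body use (5.33 and 4.72), Rapsn, which clusters acetylcholine receptors (5.33 and 4.72), Gm996 (4.79 and 5.24), Gjd3, a connexin (4.79 and 4.72), and Khdc3, a KH domain protein known from the oocyte (4.26 and 5.24). The Khdc3 peaks lay 973 and 979 bp downstream of its TSS, and the Prss8 peaks 882 and 866 bp downstream. The 2 Oxct2b peaks do not overlap, with summits 545 and 12 bp downstream of its TSS. The Gm996 values come from 2 separate peaks, at chr2:25580150-25580286 and chr2:25579245-25579384. Another replicate 1 peak of Gm996, with 4.26, overlaps the replicate 2 peak. Among the other 13 genes, named after their values were seen, were the growth factor Fgf8 (4.26 and 3.67), the transcription factor Pou2f3 (3.73 and 4.20), the water channel Aqp5 (3.73 and 4.20), elastin, Eln (3.196 and 4.20), and Igfbp4 (3.196 and 5.24). The peaks of the 2 libraries do not overlap for Pou2f3 or for Eln.

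Promoters with a peak in wild type only reached slightly further. No peak was found in either Scml2-KO library for Cnnm1, of the cyclin M family of membrane proteins linked to magnesium transport, against 7.71 and 4.11 in wild type. Chst13 had no peak in Scml2-KO, against 5.34 (chr6:90325141-90325297) and 6.17 (chr6:90325128-90325336) in wild type, with summits 45 and 28 bp before the TSS. Timp2 had no peak in Scml2-KO, against 6.53 (chr11:118355298-118355566) and 4.63 (chr11:118355401-118355526) in wild type. The wild-type peaks contain 112 and 151 of the printed bases of Chst13 and 155 and 115 of those of Timp2. Pgk2 had no peak in Scml2-KO, against 5.34 and 5.14 in wild type. Its wild-type replicate 1 peak (chr17:40208601-40208712) covers the TSS and 103 of the printed bases, a second one (chr17:40208276-40208496) lies downstream, and its replicate 2 peak (chr17:40208109-40208234) has its summit 441 bp downstream.

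Further wild-type genes of this rank were Rundc3a (5.93 and 5.14), AU021063 (5.93 and 4.63), Elavl3, a neuronal RNA-binding protein (5.34 and 4.63), Hhatl (5.34 and 4.11), and Grifin, a galectin-related lens protein (4.75 and 4.63), all with no peak in Scml2-KO. Of the other 16, named after their values were seen, Ins2, insulin, had 4.15 and 3.599, Sim2, a bHLH transcription factor, 4.15 and 4.11, and Nlgn2, a synaptic adhesion protein, 4.15 and 3.599 in wild type. The Sim2 peaks of the wild-type libraries do not overlap.

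**Figure D2:**
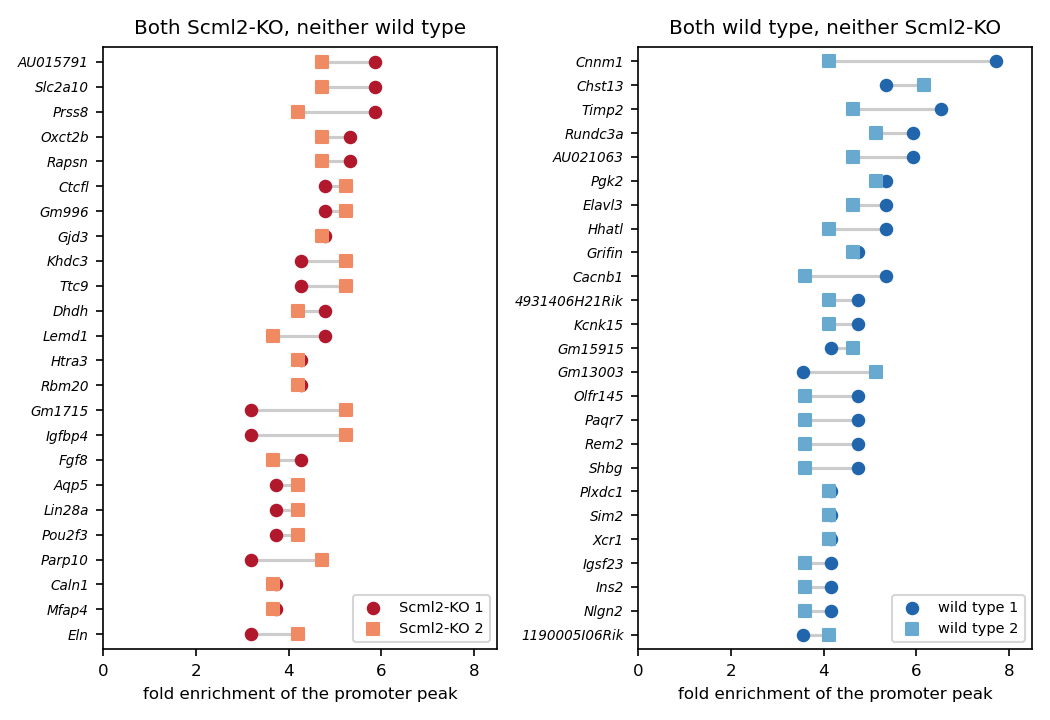
Fold enrichment of the promoter peak for the 24 genes with a peak in both Scml2-KO and neither wild-type library (left) and 25 of the 26 genes with the reverse pattern (right), each library shown as its own mark. The values lie between 3.196 and 5.86 in Scml2-KO and between 3.56 and 7.71 in wild type.

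Most of these promoters were open in some library of the other stages, where fold values belong to the list they come from. In any 1 stage, up to 4 of the 24 genes and up to 2 of the 26 repeated the split. Of the 24 genes open in Scml2-KO c-Kit+ cells, 16 and 12 had a promoter peak in the Scml2-KO Thy1 libraries, against 22 and 15 in wild-type Thy1, and 0 had a peak in both Scml2-KO and neither wild-type Thy1 library (0.0686% of all genes), while 1 had the reverse (0.784%). In round spermatids 4 of these 24 genes repeated the pattern, which 2.37% of all genes showed there, and in pachytene spermatocytes 0 did (0.690%). Of the 26 genes open in wild-type c-Kit+ cells, 18 and 9 had a peak in Scml2-KO Thy1, against 24 and 20 in wild-type Thy1. The pattern was repeated by 2 in Thy1 (0.784% of all genes) and by 0 in pachytene spermatocytes (0.382%) or round spermatids (0.411%). The reverse pattern was found for 1 of the 26 in pachytene spermatocytes (0.690% of all genes) and for 2 in round spermatids (2.37%). Pgk2 was 1 of the 2 genes that repeated the wild-type pattern in Thy1. It had no peak in either Scml2-KO Thy1 library, against 8.44 and 7.63 in wild-type Thy1. In pachytene spermatocytes its promoter had a peak in all 4 libraries, with 19.8 and 6.52 in Scml2-KO and 23.2 and 10.6 in wild type. The other gene that repeated the pattern in Thy1 was Gm13003, with no peak in Scml2-KO Thy1, against 6.63 and 3.82 in wild-type Thy1. Lin28a had a peak in 0 of the 4 Thy1 libraries. Ctcfl had a peak in all 4 round spermatid libraries, with 14.8 and 4.76 in Scml2-KO and 9.41 and 5.64 in wild type.

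With lists of equal length, more features were split, and the cuts left out the genes above. A peak in both Scml2-KO and neither wild-type list was then found for 292 regions (1.10% of 26565) and 103 genes (0.504%), and the reverse for 588 regions (2.21%) and 172 genes (0.842%). None of the 24 and none of the 26 genes above could be among them. The lowest fold enrichment kept was 9.06 and 3.67 in Scml2-KO, against 9.49 and 5.65 in wild type. The 24 genes reached at most 5.86 in Scml2-KO replicate 1, and the 26 genes at most 7.71 in wild-type replicate 1. Of the 292 regions, 292 had a peak in the full list of wild-type replicate 1 and 216 in both full wild-type lists. Of the 588 regions, 586 had a peak in the full list of Scml2-KO replicate 1 and 2 did not, while the full list of replicate 2 is its equal-length list and can hold none of them. These 2 regions are those in the equal-length lists of both wild-type libraries and absent from both full Scml2-KO lists, 0.00188% of all regions, and 0 regions and 0 genes showed the reverse. The first lies between genes near 4930474N05Rik (chr14:35936882-35937075) and had no peak in Scml2-KO, against 10.7 and 6.17 in wild type. The second lies in an intron of Cspg4, a chondroitin sulfate proteoglycan (chr9:56875312-56875491), with no peak in Scml2-KO, against 10.1 and 5.65 in wild type. The genes of the lists below with the equal-length pattern were named after their values were seen. They were Ret, the GDNF receptor, Scmh1, a Polycomb protein of the same family as SCML2, Gdnf and Kdr towards Scml2-KO, and Rdh11, Cdkn1a and Lhcgr towards wild type. In the full lists Ret had 9.59 and 3.67 in Scml2-KO, against 7.12 and no peak in wild type, and Scmh1 had 9.59 and 7.34 in Scml2-KO, against 8.31 and 5.14 in wild type.

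Away from promoters the strongest split regions lay mostly in introns and between genes. Among the 132 regions open in Scml2-KO, the highest median values were those of an intron of Birc2, an inhibitor of apoptosis (chr9:7824884-7825171, 7.99 and 4.20), an intron of Gatsl2 (chr5:134121660-134121988, 6.39 and 5.77) and an intron of Itpr2, an inositol trisphosphate receptor (chr6:146480131-146480417, 6.93 and 4.72). A region upstream of Vmn1r2 (chr4:3165169-3165337) and an intron of Gm13152 (chr4:147336024-147336193) came next, each with 6.39 and 5.24. An exon of the Polycomb-like gene Phf19, named after its values were seen, followed (chr2:34906817-34907154, 6.93 and 4.20). Among the 509 regions open in wild type, the highest was intergenic near Slc41a2 (chr10:83217190-83217638, 9.49 and 7.71), followed by the 2 regions above and an intron of Tmprss11d (chr5:86318454-86318600, 7.71 and 7.197). Of the 132 regions 32.6% were promoter regions in the authors' annotation, against 11.98% of the 509 and 18.2% of all 106241. By definition the 132 have a peak in Scml2-KO replicate 2, whose list was 63.4% promoter peaks, and the 509 have none there. With lists of equal length, promoters were 35.3% of the 292 regions towards Scml2-KO, 30.8% of the 588 towards wild type and 42.8% of all 26565.

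Shorter lists held a larger share of promoter peaks and smaller shares of intron and intergenic peaks. Promoters held 20.6% (Wilson 95% interval 20.4 to 20.9) and 63.4% (62.7 to 64.1) of the autosomal peaks in Scml2-KO, against 23.2% (22.9 to 23.5) and 43.1% (42.5 to 43.6) in wild type. The 2 Scml2-KO values lie outside the 2 wild-type values on either side. The mean was 42.0% ± 30.2 in Scml2-KO and 33.1% ± 14.0 in wild type (SD, n = 2 each), a difference of 8.87 points with a two-sided exact permutation p of 1 (adjusted over 5 classes 1). Within replicate 1 the difference was −2.60 points and within replicate 2 it was 20.3 points. Without Scml2-KO replicate 2 it was −12.5 points and without wild-type replicate 1 it was −1.06 points. Introns held 31.7% and 13.3% in Scml2-KO, against 31.4% and 22.1% in wild type, and intergenic sequence 30.0% and 11.7% in Scml2-KO, against 28.1% and 21.2% in wild type. With lists of equal length, promoters held 50.3% and 63.4% in Scml2-KO, against 53.1% and 57.1% in wild type, a difference of 1.73 points (exact permutation p = 1). Exons were the class whose 2 genotypes did not overlap at equal length, with 3.77% and 4.19% in Scml2-KO, against 3.49% and 2.97% in wild type (exact permutation p = 0.333, adjusted over 5 classes 1).

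**Figure D3:**
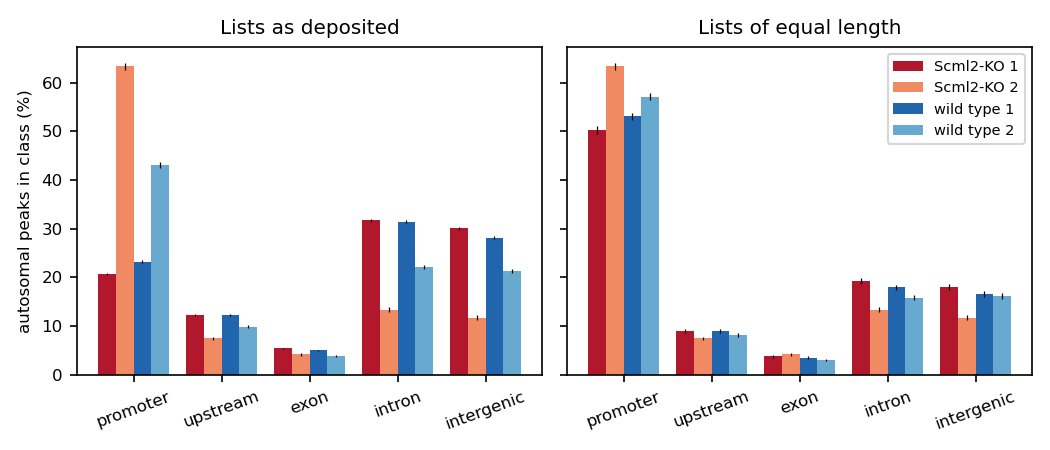
Share of autosomal peaks (%) in each region class of the authors' annotation, for the lists as deposited (left) and with 17410 peaks in each list (right). Bars are single libraries and error lines are Wilson 95% intervals. The shortest list, Scml2-KO replicate 2, has the highest promoter share in both panels, 63.4%.

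The height of the peaks was compared in the 13552 regions open in all 4 libraries. Their median fold enrichment was 14.4 and 6.82 in Scml2-KO, against 14.8 and 9.25 in wild type, so each library was set to a shared median before the fit. By limma on log2 fold enrichment with Benjamini-Hochberg adjustment, 0 regions were higher (0% of the regions tested) and 0 lower in Scml2-KO (0%), with a lowest adjusted p of 0.9997. Without Scml2-KO replicate 1 there was 1 lower region (adjusted p = 0.0425). At an unadjusted p under 0.05, 78 regions were higher and 125 lower. The median standard error of the log2 difference was 0.28 and the median half-width of its 95% interval 0.59, while the differences had an SD of 0.25 over regions. Differences of up to 1.09 did not pass the adjusted test. Both Scml2-KO values lay above both wild-type values in 1821 regions (13.4%) and below them in 1787 (13.2%).

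The 5 regions with the lowest p in each direction were promoters in the authors' annotation in all but 1 case, as were 68.7% of the regions tested, and none passed (limma, adjusted p = 0.9997 for each). The promoter shared by Brd8, a bromodomain protein, and Kif20a, a mitotic kinesin (chromosome 18), had a fold enrichment of 22.9 and 9.44 in Scml2-KO, against 13.6 and 5.65 in wild type. After centring, its log2 difference was 0.99 ± 0.27 (SE, n = 2 each). The Tpst2 promoter, of a tyrosylprotein sulfotransferase, had 26.1 and 17.3 in Scml2-KO, against 19.0 and 10.8 in wild type, a log2 difference of 0.81 ± 0.23. The Kcmf1 promoter, of a ubiquitin ligase, had 15.98 and 9.96 in Scml2-KO, against 11.9 and 5.65 in wild type, a difference of 0.87 ± 0.28. In each of these 3 promoters both Scml2-KO libraries were above both wild-type libraries after centring. A choice by the lowest p from these same values favours such a separation, so it adds no support. The other 2 regions of this direction were the promoter shared by Rpl17 and Snord58b (1.01 ± 0.29) and an intergenic region near Laptm4b (1.09 ± 0.36). The Laptm4b region had 3.599 in wild-type replicate 2, the lowest fold enrichment in that list.

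In the opposite direction stood Vps13a, a lipid transfer protein (chromosome 19), with 14.9 and 7.87 in Scml2-KO, against 27.9 and 17.0 in wild type. Its log2 difference was −0.76 ± 0.22. Lmtk2, a membrane kinase, had 13.9 and 3.67 in Scml2-KO, against 21.96 and 12.3 in wild type (−0.96 ± 0.30). Its value of 3.67 is the lowest fold enrichment in the Scml2-KO replicate 2 list. Chmp1b, of the membrane-remodelling complex ESCRT-III, had 9.59 and 4.72 in Scml2-KO, against 19.0 and 10.8 in wild type (−0.85 ± 0.27). Atp5e, a subunit of mitochondrial ATP synthase, and Tufm, the mitochondrial elongation factor, had differences of −0.72 ± 0.24 and −0.79 ± 0.26. In all 5 promoters both Scml2-KO libraries were below both wild-type libraries after centring, which the choice by the lowest p again favours.

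**Figure D4:**
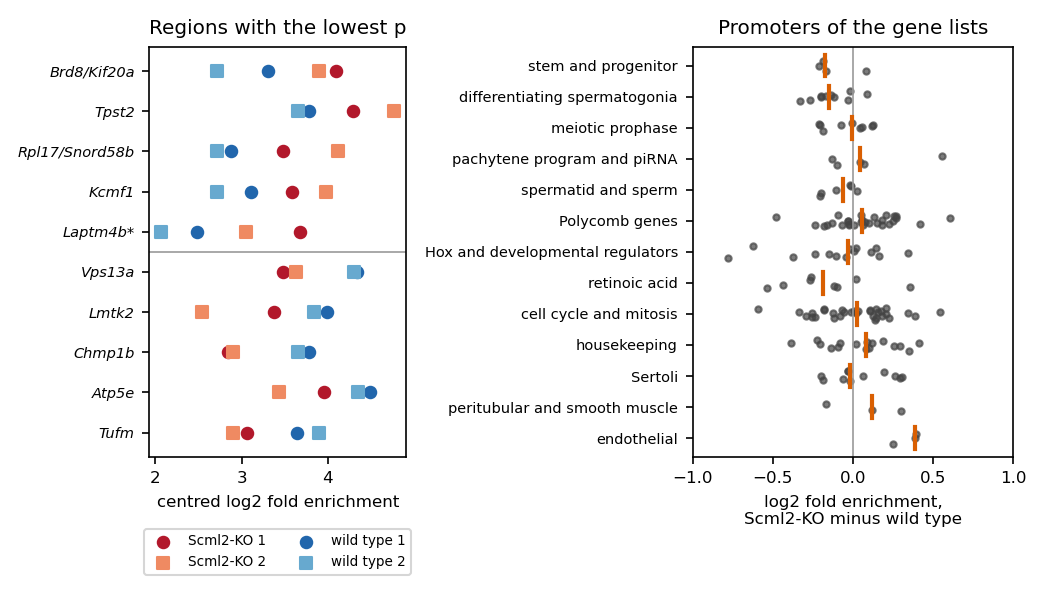
Left, centred log2 fold enrichment of the 10 regions with the lowest p (the asterisk marks an intergenic region), each library as its own mark. Right, log2 difference, Scml2-KO minus wild type, of the strongest region open in all 4 libraries within 1 kb of a TSS. Each dot is a gene of the lists, with the list median as an orange bar. No region passed the adjusted threshold, and most list members lie within 0.5 of 0.

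Promoters of the stem list were seldom open in all 4 libraries, and those of the differentiating list were about as often as over all genes. Over all 20420 genes, a promoter peak was found for 71.1% and 51.5% in Scml2-KO, against 69.9% and 60.1% in wild type, and for 50.1% in all 4 libraries. A promoter was fitted where a region open in all 4 libraries overlapped the 1 kb on either side of a TSS, and the strongest such region was used. The fitted genes are thus not the same set as the genes with a promoter peak in all 4 libraries. Of 10282 promoters fitted, both Scml2-KO libraries lay above both wild-type libraries in 13.0% and below them in 14.9%, and the median difference was −0.01. Of 25 stem and progenitor genes, 20 and 8 had a promoter peak in Scml2-KO, against 19 and 8 in wild type, or 80% and 32% against 76% and 32%, and 4 (16%) had one in all 4. The replicate 2 shares thus lay below those over all genes in both genotypes. Pou5f1, T and Plvap had no peak in any library. Etv5, a GDNF-responsive factor of stem cell self-renewal, had 28.8 and 17.8 in Scml2-KO, against 29.7 and 21.6 in wild type. Id4, a marker of stem spermatogonia, had 20.2 and 6.82 in Scml2-KO, against 22.5 and 10.8 in wild type. Zbtb16 (PLZF), a repressor that maintains progenitors, had 9.06 and 5.24 in Scml2-KO, against 5.93 and no peak in wild type. The median difference of the 4 fitted genes was −0.18, with 1 of 4 below in both Scml2-KO libraries.

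Of 20 genes of differentiating spermatogonia, 17 and 10 had a promoter peak in Scml2-KO, against 18 and 12 in wild type, and 10 had one in all 4. Kit, which marks the sorted fraction, had a peak in every library, with 13.9 and 6.29 in Scml2-KO, against 16.6 and 9.25 in wild type. Its log2 difference was −0.17 ± 0.26 (SE, n = 2 each). Kdm1b, a histone demethylase, had 23.97 and 11.5 in Scml2-KO, against 32.0 and 19.0 in wild type, a difference of −0.33 ± 0.20. Stra8, the retinoic acid target that starts meiosis, had 12.8 and no peak in Scml2-KO, against 11.3 and no peak in wild type, so its presence followed the replicate number. The 10 fitted genes had a median difference of −0.15. Kit and Kdm1b were the 2 with both Scml2-KO values below both wild-type values, against 14.9% of all promoters fitted.

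Promoters of meiotic and later genes were open for a part of each list in both genotypes. Of 26 meiotic prophase genes, 20 and 9 had a peak in Scml2-KO, against 18 and 13 in wild type. Prdm9, which places recombination hotspots, had 31.96 and 10.5 in Scml2-KO, against 31.5 and 20.05 in wild type, and Stag3, a meiotic cohesin, had 26.1 and 8.92 in Scml2-KO, against 24.3 and 14.9 in wild type. Of 20 pachytene and piRNA genes, 17 and 7 had a peak in Scml2-KO, against 17 and 9 in wild type. Mybl1 (A-MYB), a transcriptional activator of the pachytene program, had 25.0 and 19.4 in Scml2-KO, against 29.7 and 21.6 in wild type. Of 39 spermatid genes, 15 and 6 had a peak in Scml2-KO, against 14 and 8 in wild type, and 24 had none in any library, among them the protamine genes Prm1 and Prm2. Crem, which drives spermatid transcription, had 29.8 and 14.2 in Scml2-KO, against 35.6 and 22.1 in wild type, a difference of −0.21 ± 0.19.

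Polycomb genes were open in nearly every library. Of 37, 35 and 30 had a promoter peak in Scml2-KO, against 35 and 33 in wild type, and 30 had one in all 4. Ezh2, the PRC2 methyltransferase, had 25.6 and 16.3 in Scml2-KO, against 23.7 and 17.0 in wild type (log2 difference 0.27 ± 0.22). Rnf2, the PRC1 ubiquitin ligase, had 18.1 and 14.2 in Scml2-KO, against 22.5 and 16.5 in wild type (−0.02 ± 0.25). Phc1, a PRC1 subunit, and Scmh1 were the 2 of 30 above in both Scml2-KO libraries, with differences of 0.42 ± 0.23 and 0.60 ± 0.34. Asxl1 (−0.18 ± 0.23) and Phf1 (−0.48 ± 0.34), a PRC2 partner, were the 2 below. Over all promoters fitted, 13.0% were above and 14.9% below. The median over the 30 genes was 0.06, and 0 passed the limma test, against 0 of all regions.

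Hox and developmental regulators, typical targets of Polycomb repression, had shares near those over all genes in replicate 1 and below them in replicate 2. Of 60 genes, 40 and 16 had a promoter peak in Scml2-KO (66.7% and 26.7%), against 36 and 22 in wild type (60% and 36.7%), and 17 had none in any library, among them Hoxa11, Hoxa13, Shh and Wnt1. None had a peak in both libraries of 1 genotype and neither of the other, as deposited or at equal length. Neurog2, a neurogenic bHLH factor, had 6.39 and 4.20 in Scml2-KO, against 11.3 and 9.77 in wild type, a difference of −0.78 ± 0.34 (limma, unadjusted p = 0.0373, adjusted p = 0.9997). Tbx2, a T-box repressor, had 4.79 and 3.67 in Scml2-KO, against 9.49 and 6.17 in wild type (−0.62 ± 0.42). Its value of 3.67 is the lowest fold enrichment in the Scml2-KO replicate 2 list. The 14 fitted genes had a median of −0.03, with 3 below and 1 above, against 14.9% and 13.0% of all promoters fitted.

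Retinoic acid drives the entry of spermatogonia into differentiation. Of 21 genes of its synthesis, breakdown and reception, 17 and 9 had a promoter peak in Scml2-KO, against 17 and 14 in wild type. Aldh1a2, which makes retinoic acid, had 7.46 and 5.77 in Scml2-KO, against 15.4 and 8.23 in wild type, a difference of −0.54 ± 0.32 (SE, n = 2 each). Rara, the receptor of spermatogonia and Sertoli cells, had 7.46 and 5.24 in Scml2-KO, against 11.9 and 6.68 in wild type. Aldh1a2, Dhrs3 and Rxrb were below in both Scml2-KO libraries and Rxra was above, with a median of −0.19 over 8 fitted genes. Over all promoters fitted, 14.9% were below and 13.0% above. None of the 8 passed the limma test.

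Most cell cycle promoters and all 16 housekeeping promoters were open in all 4 libraries. Of 38 cell cycle genes, 37 and 32 had a peak in Scml2-KO, against 37 and 36 in wild type, and 32 had one in all 4. E2f2, an E2F transcription factor, had none in any library. The median difference was 0.03 over 32 fitted genes, 9 above and 4 below, against 13.0% and 14.9% of all promoters fitted. Top2a, the mitotic topoisomerase, had 14.9 and 8.92 in Scml2-KO, against 10.7 and 8.23 in wild type (0.54 ± 0.27), and Ccnb1, a mitotic cyclin, had 18.1 and 7.34 in Scml2-KO, against 23.1 and 12.9 in wild type (−0.34 ± 0.23). The 16 housekeeping genes had a median of 0.08. The medians of the lists thus lay within −0.19 and 0.08 for the germline, Polycomb, developmental, retinoic acid, cell cycle and housekeeping lists.

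Promoters of somatic marker genes were open to a very different extent from list to list, set against the 71.1% and 51.5% of all genes in Scml2-KO and the 69.9% and 60.1% in wild type. Of 21 Sertoli cell markers, 19 and 11 had a peak in Scml2-KO (90.5% and 52.4%), against 18 and 13 in wild type (85.7% and 61.9%), so that the replicate 2 shares were close to those of all genes. Clu had 14.9 and 7.87 in Scml2-KO, against 16.02 and 6.68 in wild type, and Sox9 had 10.1 and no peak in Scml2-KO, against 11.3 and 5.65 in wild type. Peritubular markers had a peak for 12 and 5 of 14 in Scml2-KO, against 12 and 8 in wild type, and endothelial markers for 7 and 4 of 12 in Scml2-KO, against 8 and 3 in wild type. Of the endothelial markers, Pecam1, Tie1 and Vwf had no peak in any library, while Cdh5, Kdr and Egfl7 had a peak in all 4. The endothelial, immune and Leydig lists were below all genes in each library. The endothelial shares were 58.3% and 33.3% in Scml2-KO, against 66.7% and 25% in wild type. Of 9 immune markers, 3 and 0 had a peak in Scml2-KO, against 2 and 1 in wild type. Ptprc, which marks all leukocytes, had none in any library. Cd14 had 10.7 and no peak in Scml2-KO, against 11.3 and 4.63 in wild type. Of 12 Leydig cell markers, 6 and 1 had a peak in Scml2-KO, against 8 and 2 in wild type, and Cyp11a1, Hsd3b1 and Hsd17b3 had none. Scarb1 had a peak in all 4 libraries, with 9.06 and 5.77 in Scml2-KO, against 8.90 and 6.17 in wild type. Lhcgr had a peak in 3 libraries, and Star and Insl3 in 2 each. Where 3 or more of their promoters could be fitted, the median log2 difference was −0.02 for Sertoli, 0.12 for peritubular and 0.39 for endothelial markers, over 11, 3 and 3 promoters. In the Sertoli, peritubular, endothelial and Leydig lists the counts differed more between replicates than between genotypes of the same number. Whether other cells in the fraction take part in any value above was not tested.

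The split regions were also looked up in the other stages. In Thy1+ cells, the 132 regions open in Scml2-KO c-Kit+ cells had a peak for 72.7% and 38.6% in the Scml2-KO libraries, against 78.8% and 59.8% in wild type. The 509 regions open in wild-type c-Kit+ cells had one for 73.1% and 36.0% in Scml2-KO, against 81.5% and 73.1% in wild type. All 106241 regions had one for 66.1% and 37.6% in Scml2-KO, against 70.7% and 50.5% in wild type. Between Thy1 libraries of the same replicate number the share was higher in wild type for both sets and for all regions, but across numbers it was not: Scml2-KO replicate 1 gave a share as high as, or higher than, wild-type replicate 2. In pachytene spermatocytes the 132 regions had a peak for 41.7% and 18.9% in Scml2-KO, against 33.3% and 21.97% in wild type, and the 509 regions for 20.04% and 8.25% in Scml2-KO, against 18.7% and 10.02% in wild type. All regions had one there for 26.1% and 14.6% in Scml2-KO, against 23.8% and 14.9% in wild type. In round spermatids the 132 regions had one for 40.2% and 21.97% in Scml2-KO, against 17.4% and 25.0% in wild type, and the 509 regions for 25.7% and 9.23% in Scml2-KO, against 9.82% and 8.84% in wild type. All regions had one there for 30.8% and 14.4% in Scml2-KO, against 19.2% and 14.0% in wild type. In each of the 8 adult libraries the 509 regions had a lower share than all regions. As deposited, the 132 regions had a higher share than all regions in 7 of them and a lower one in wild-type round spermatid replicate 1. Promoters made up 32.6% of the 132 and 11.98% of the 509. With c-Kit+ lists of equal length, the 292 regions split towards Scml2-KO had 48.97% and 35.6% in Scml2-KO pachytene spermatocytes. All 26565 regions had 53.2% and 43.6% there. In wild type the shares were 47.6% and 34.2%, against 51.2% and 42.7% of all. In round spermatids they were 58.9% and 36.99% in Scml2-KO (all: 58.8% and 43.9%) and 41.8% and 34.6% in wild type (all: 47.5% and 41.4%).

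**Figure D5:**
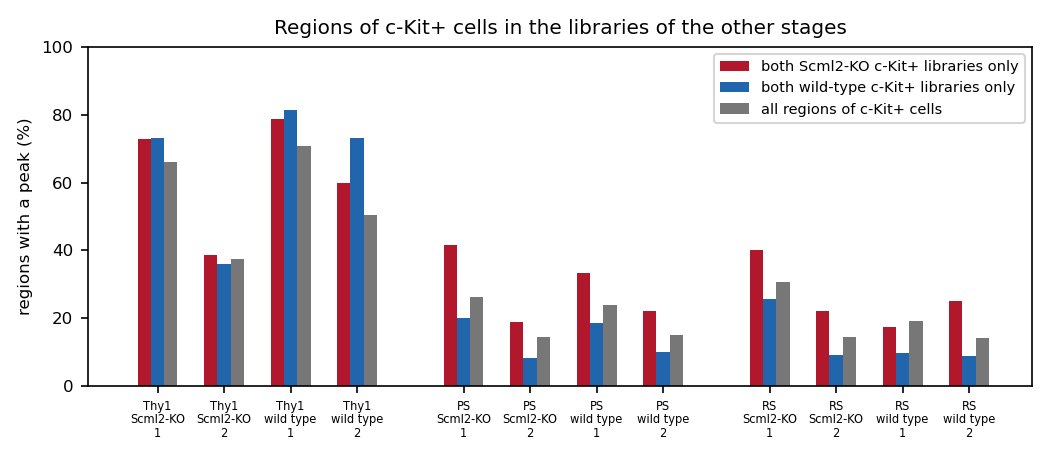
Share of regions with a peak (%) in each library of Thy1+ spermatogonia (Thy1), pachytene spermatocytes (PS) and round spermatids (RS), for the 132 regions split towards Scml2-KO in c-Kit+ cells (red), the 509 split towards wild type (blue) and all 106241 regions (grey). The shares of the 2 split sets lie between 36.0% and 81.5% in the Thy1+ libraries and between 8.25% and 41.7% in the PS and RS libraries.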

How the data were processed

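Open chromatin was measured by ATAC-seq. The submitters' processing notes name the mouse build mm10, the aligner Bowtie 1.1.1 and the peak caller MACS2 2.1.0.20140616, whose options are not given in the sources used. The authors deposited 1 peak list per library with no pooling of replicates. The fold enrichment is a ratio deposited by the authors, in which 1 is added to both the pileup and a background that was constant within a list. The deposited pileup is a signal, the summit's coverage. Per the file headers, the significance of a peak is given as −log10 p and −log10 q. Read depth is unknown.

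Lines with equal chromosome, start and end were joined into 1 peak, and peaks of the 4 c-Kit lists on the 19 autosomes sharing 1 bp or more formed 106241 merged regions. Start sites of 20420 autosomal genes were taken from the authors' annotated transcripts, and 994 genes named only with another gene were placed by the RefSeq table. A promoter peak overlaps 1000 bp on either side of a start site. Presence in both libraries of 1 genotype and in no library of the other was counted without a test. Lists of equal length held the 17410 peaks with the highest −log10 q, ties being drawn at random with a fixed seed. Regions with a peak in all 4 libraries were tested with limma 3.58.1 on log2 fold enrichment, with a shared median, an intensity trend and Benjamini-Hochberg adjustment over all regions (threshold 0.05). The scripts were tested on simulated data. For the shares of region classes, a two-sided exact permutation test was used. Wilson 95% intervals cover counting error only.

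Genes were named by rule: in each direction the 10 with the highest median fold enrichment of the promoter peak, every member of a gene list with such a pattern, the strongest regions, and the 5 regions with the lowest p. Members and lists were chosen with earlier results of these data known. A check of sequence content over regions needs a genome and was not done. Promoter sequences from RefSeq matched 15362 genes. Some of the genes that the rule names are not reported here. Replicate numbers come from the titles. The deposited file names number the c-Kit replicates the other way round in both genotypes, which leaves the same libraries sharing a number. Deviations of same-numbered libraries correlated at 0.31, a value that 2 pairs share by construction. The main fit did not take the numbers as pairs, and the replicate number as a block was an alternative. The labels do not say that replicates are separate mice, and the p-values then cover only the variation among these libraries, possibly technical.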

Additional observations from a re-analysis of the deposited data

How the results depend on the processing

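Counts of regions or genes split by genotype changed with the length of the lists, with stricter thresholds and, by the widest range, with the library left out. Towards Scml2-KO they were 132 regions and 24 genes as deposited, 292 and 103 with lists of equal length, 250 and 90 with ties broken by peak length, 37 and 5 with a −log10 q of 5 or more, 34 and 5 with a fold enrichment of 5 or more, and 0 and 0 in equal-length lists against full lists. Towards wild type, 509 regions and 26 genes became 588 and 172, 568 and 177, 304 and 44, 676 and 92, and 2 and 0. With lists of equal length within each replicate number, they were 152 regions and 21 genes towards Scml2-KO and 99 and 2 towards wild type. The last setting and the ties by length were chosen after seeing the data. Leaving out 1 library gave 190 to 27670 regions and 29 to 570 genes towards Scml2-KO, and 555 to 16371 regions and 31 to 1956 genes towards wild type, with 1 library left in a genotype. The largest were 27670 regions without Scml2-KO replicate 2 and 16371 without wild-type replicate 2. An overlap of 100 bp, X and Y added, a 500 bp window and promoters as annotated by the authors kept the counts within 1.5 times. The genes were not all the same: the 500 bp window kept 17 of the 24 genes and 19 of the 26. AU015791, Prss8, Khdc3 and Grifin were among those that lost the pattern.

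Fold enrichment by limma gave 0 higher and 0 lower regions under each alternative but 1: without Scml2-KO replicate 1, 1 region was lower (adjusted p = 0.0425), so the count of lower regions ranged from 0 to 1 and that of higher regions from 0 to 0. The remaining single Scml2-KO library is assumed there to vary like the others. With the replicate number as a block, the calls were 0 and 0 (lowest adjusted p = 0.575), and the block changed no call. At an unadjusted limma p under 0.05, the block gave 261 higher and 267 lower regions, against 78 and 125 in the main fit. Class differences kept their value under the block by construction (8.87 points for promoters). The promoter difference ranged from −12.5 to 30.3 points when 1 library was left out, and was −12.5 without Scml2-KO replicate 2 and −1.06 without wild-type replicate 1. Over the same settings upstream regions ranged from −3.64 to 1.19 points, introns from −13.5 to 4.98, intergenic sequence from −12.97 to 5.34 and exons from −0.18 to 1.04. The exon difference, 0.43 points as deposited, was −0.022 with a −log10 q of 5 or more. The causes were not tested. Read depth is unknown, which limits what a missing peak can say.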
